A study of Mus musculus with 2 samples.

Results

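The S100 calcium-binding protein family was examined in endogenous CD8+ T (en-T) cells, the recipient's own CD8+ T cells, of melanoma-bearing mice treated with adoptive T-cell therapy. The set held 10 genes given by symbol (S100a1, S100a3, S100a4, S100a5, S100a6, S100a8, S100a9, S100a10, S100a11 and S100a13) of 19505 genes named on the array. Each of them had a single probe set, so no choice between probe sets was needed. The genes were listed with their differences between the arrays in view, so those differences are a description and were not tested.

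RNA was hybridised to single-color Clariom S mouse arrays (Affymetrix), with 1 array for CTXpre/CD4post and 1 for CTXpre. All mice were C57BL/6 females, 6 to 8 weeks old, that carried B16F10 melanoma (200000 cells given intradermally on day 0), and all received 300 mg/kg cyclophosphamide (CTX) on day 3, 2000000 Thy1.1+ Pmel-1 T cells (CD8+ cells with a transgenic receptor for a melanoma antigen) on day 5 and 10000 IU of IL-2 daily for 3 days. The CTXpre/CD4post mice additionally received 200 µg of the CD4-depleting antibody GK1.5 on days 10, 17 and 24, and the CTXpre mice did not. On day 25, CD8-positive, Thy1.1-negative cells were sorted from inguinal lymph nodes and spleen, and the cells of 5 mice were pooled before RNA was extracted for each array. Each group thus had n = 1, the spread between mice cannot be seen, and none of the differences could be checked in replicates.

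S100 proteins are small calcium sensors with a pair of EF-hand motifs. Most of them work as dimers, which on binding calcium expose a surface that grips target proteins such as annexins and myosin. S100a4, S100a6, S100a10 and S100a11 are typically found in effector and memory T cells and in other motile cells, where they act on the cytoskeleton and the plasma membrane. S100a8 and S100a9 form calprotectin, an abundant protein of neutrophils and monocytes that binds zinc and calcium and acts as an inflammatory signal once released.

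All 10 genes lie on mouse chromosome 3, in the stretch that holds most of the family. The 250 bases before the annotated transcription start are given for 5 of them, since these are the promoters of the members with the largest differences in either direction (S100a4, S100a6, S100a8 and S100a9) and of a member with a small one (S100a11). The sequences are from RefSeq (GRCm38.p6), which matched 9 of the 10 members and not S100a10. S100a4 (chr3:90603520-90603769), S100a6 (chr3:90612644-90612893), S100a8 (chr3:90668821-90669070) and S100a11 (chr3:93520246-93520495) are on the plus strand and S100a9 (chr3:90695722-90695971) is on the minus strand. Capitals mark matches, on either strand, to the TATA box (TATAAA), the AP-1 word (TGANTCA), the GC box (GGGCGG) and the RUNX word (TGTGGT).
S100a4: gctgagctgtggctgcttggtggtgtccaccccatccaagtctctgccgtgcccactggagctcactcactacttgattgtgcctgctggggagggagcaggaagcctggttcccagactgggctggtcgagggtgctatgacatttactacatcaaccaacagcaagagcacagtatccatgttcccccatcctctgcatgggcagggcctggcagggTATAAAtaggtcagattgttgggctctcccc
S100a6: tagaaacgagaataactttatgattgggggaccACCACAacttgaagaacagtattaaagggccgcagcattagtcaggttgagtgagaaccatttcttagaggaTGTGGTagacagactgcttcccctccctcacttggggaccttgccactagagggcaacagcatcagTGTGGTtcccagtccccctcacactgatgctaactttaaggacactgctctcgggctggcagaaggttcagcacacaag
S100a8: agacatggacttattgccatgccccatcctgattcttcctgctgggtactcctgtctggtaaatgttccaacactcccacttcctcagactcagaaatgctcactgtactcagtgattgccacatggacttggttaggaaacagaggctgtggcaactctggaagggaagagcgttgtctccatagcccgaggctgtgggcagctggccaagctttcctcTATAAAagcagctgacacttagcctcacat
S100a9: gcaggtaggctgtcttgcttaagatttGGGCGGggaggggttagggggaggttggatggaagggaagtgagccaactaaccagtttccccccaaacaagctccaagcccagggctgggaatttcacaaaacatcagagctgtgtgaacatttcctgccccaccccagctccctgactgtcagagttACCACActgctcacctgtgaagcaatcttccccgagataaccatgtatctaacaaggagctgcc
S100a11: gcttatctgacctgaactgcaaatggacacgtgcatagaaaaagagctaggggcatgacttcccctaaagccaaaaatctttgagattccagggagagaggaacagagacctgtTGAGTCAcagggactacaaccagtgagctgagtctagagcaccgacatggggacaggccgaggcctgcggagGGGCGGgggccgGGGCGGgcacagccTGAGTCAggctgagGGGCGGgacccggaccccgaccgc

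The promoters printed above did not share one layout. TATAAA stood 31 to 26 bases before the start of S100a4 and 30 to 25 bases before that of S100a8, that is, in a gene that was higher and in one that was lower in the CTXpre/CD4post library. It was not in the 250 bases before S100a6, S100a9 or S100a11, although the S100a9 gene had 1 match in the 50 bases after its annotated start. Among the promoters not printed, TATAAA stood 52 to 47 bases before 1 annotated start of S100a3. Another S100a3 start had a GC box, and S100a1, S100a5 and S100a13 had no match to any of these words. S100a6 held 3 matches to the RUNX word, and S100a9 held 1. S100a11 held 2 AP-1 words and 3 GC boxes, and its window was 60% G or C, against a median of 52.4% over the 32851 windows of the RefSeq table. Of those windows, 12.4% held TATAAA, 6.75% the AP-1 word, 32.7% the GC box and 14% the RUNX word. A match is a description of letters and no evidence that a factor binds there.

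To place the members among all transcripts, levels are given as log2 values and each difference is CTXpre/CD4post minus CTXpre. A probe set was taken as above background where its level passed the bound of its array, 4.36 for CTXpre/CD4post and 4.35 for CTXpre, taken from 1452 probe sets of chemosensory receptors (olfactory, vomeronasal, taste) as their 95th percentile. Of the 10 members, 7 were above background on both arrays and 3 (S100a1, S100a3 and S100a5) on neither. Of the 7, 2 were at least 2-fold higher in the CTXpre/CD4post library and 0 at least 2-fold lower, where 0.53% and 0.579% of 14339 probe sets that passed the bound on either array were that much higher and lower. The same 2 genes passed 3-fold, which 0.133% of probe sets passed upwards. At 1.5-fold, 3 members were higher and 1 was lower, beside 3.03% and 3.35% of all probe sets. Because the members were chosen on this contrast, nothing is read from these counts.

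**Figure D1:**
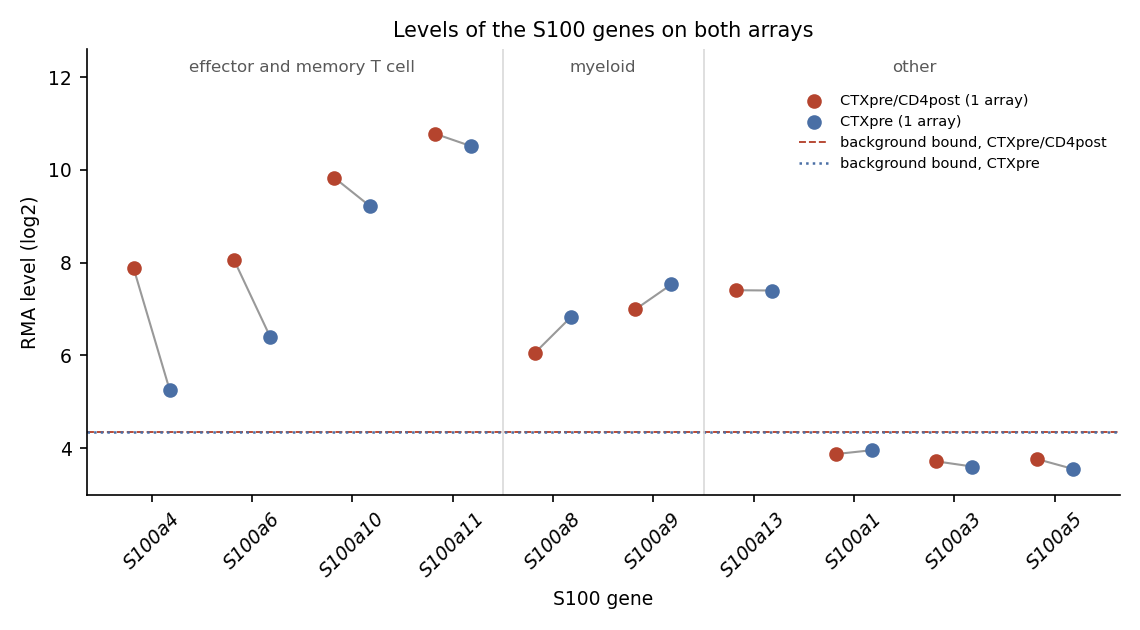
RMA level (log2) of each S100 gene on the CTXpre/CD4post array (red, left point) and on the CTXpre array (blue, right point), with the background bound of each array as horizontal lines. S100a4 and S100a6 stand apart between the arrays, with 7.88 and 8.06 in CTXpre/CD4post against 5.25 and 6.41 in CTXpre, while S100a1, S100a3 and S100a5 lie below both bounds; heights of different genes are not comparable because their probes differ.

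S100a4 had the largest difference of the family. S100a4, also called metastasin, binds non-muscle myosin and is linked to cell motility. Its level was 7.88 in the CTXpre/CD4post library and 5.25 in the CTXpre library, a difference of 2.63 and thus 6.18-fold higher. It ranked 5th from the top of 12862 genes above background, and 0.0311% of those genes had a larger difference in size. The study itself singled out S100a4 from these samples as a higher gene, so its direction has no independent support here.

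S100a6, also called calcyclin, is a growth-inducible member that binds annexins and a regulator of protein degradation. Its level was 8.06 in the CTXpre/CD4post library and 6.41 in the CTXpre library, 3.15-fold higher, at rank 13. The difference of S100a4 exceeded that of S100a6 by 0.97. Adding 32 to the linear values, which shrinks differences of dim genes, left 1.93 for S100a4 and 1.36 for S100a6, still in the same order. In a pooled bulk sample, more cells with a transcript and more transcript per cell cannot be told apart.

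The other members typical of effector and memory T cells differed less. S100a10, the partner of annexin A2 at the plasma membrane, had a level of 9.83 in the CTXpre/CD4post library and 9.21 in the CTXpre library, 1.54-fold higher, and 5.49% of genes had a larger difference in size. After a further quantile normalization its difference was 0.58, short of 1.5-fold. S100a11, a partner of annexin A1 that takes part in membrane repair, had levels of 10.78 and 10.51 in CTXpre/CD4post and CTXpre, a difference of 0.27 that 29.6% of genes exceeded in size. All 4 members of this group thus had a difference above 0, with a median of 1.14, beside a median of 0.01 over all probe sets above background. The group ran from 0.27 to 2.63, so it did not move as a block.

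The myeloid members stood on the other side of 0. S100a8 had a level of 6.06 in the CTXpre/CD4post library and 6.83 in the CTXpre library, 1.71-fold lower, and ranked 194th from the bottom. S100a9 had levels of 6.99 in CTXpre/CD4post and 7.53 in CTXpre, a difference of -0.54, short of 1.5-fold, and 7.81% of genes had a larger difference in size. The linear level left in the CTXpre/CD4post library was 58.5% of the CTXpre level for S100a8 and 68.8% for S100a9. The differences of both genes, which make the subunits of one complex, lay 0.23 apart. The member nearest to them among the effector and memory group, S100a11, lay 0.81 above S100a9.

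**Figure D2:**
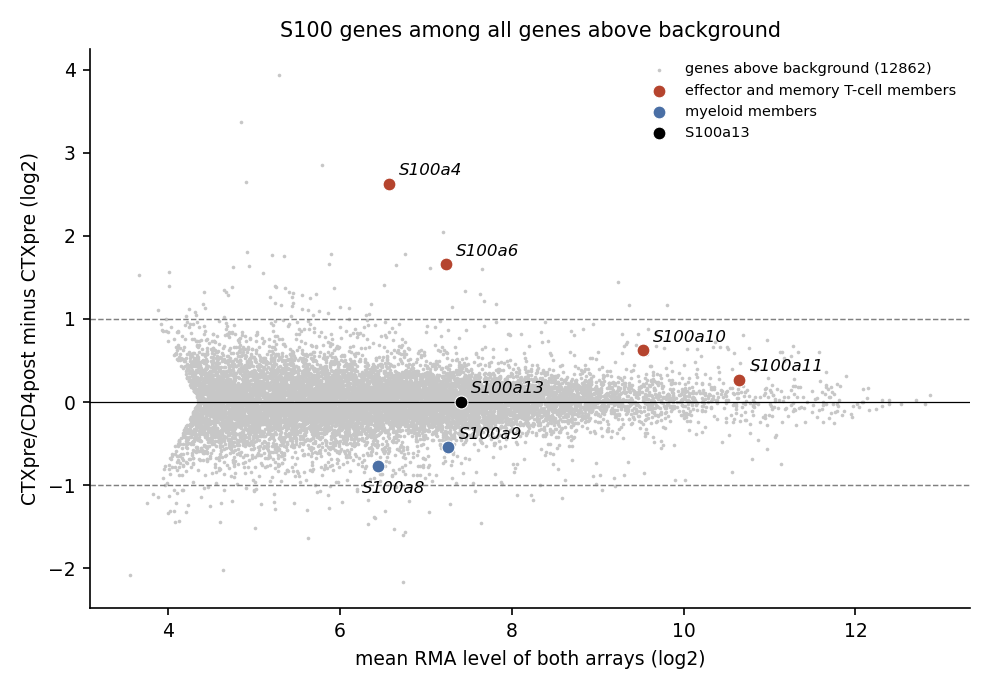
Difference between the arrays (CTXpre/CD4post minus CTXpre, log2) against the mean level of both arrays (log2) for 12862 genes above background on at least 1 array (gray) and for the 7 S100 genes above background (colored), with dashed lines at 2-fold. S100a4 (2.63) and S100a6 (1.66) lie above the upper line, S100a8 (-0.77) and S100a9 (-0.54) lie between 0 and the lower line, and S100a13 (0.01) sits in the middle of the cloud.

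The remaining members showed little. S100a13, which takes part in the export of fibroblast growth factor 1 and other proteins without a signal peptide, had levels of 7.41 in CTXpre/CD4post and 7.40 in CTXpre. Its difference of 0.01 turned to -0.01 once differences were centred on their median, so it has no direction, and 98% of genes had a larger difference in size. S100a1, a member best known from heart muscle, had levels of 3.88 in CTXpre/CD4post and 3.96 in CTXpre. S100a3, known from hair follicles, had 3.72 in CTXpre/CD4post and 3.61 in CTXpre. S100a5, known from olfactory neurons, had 3.77 in CTXpre/CD4post and 3.56 in CTXpre. These 3 genes were above background on neither array, so no fold is given for them.

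The order of the genes along the chromosome did not follow the size of the difference. In the RefSeq annotation, S100a5 lies directly between S100a4 and S100a6 with 0 other protein-coding genes on either side, and it was at background while both of its neighbours were over 3-fold higher. S100a7a, a chemoattractant member of skin, is the only protein-coding gene between S100a6 and S100a8, and its level was 4.46 in CTXpre/CD4post, just above the bound, and 4.29 in CTXpre, just below it. Next to it, S100a8 was lower and S100a9 differed by -0.54. S100a11 and S100a10 lie apart from the rest, with 56 protein-coding genes between S100a9 and S100a11.

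**Figure D3:**
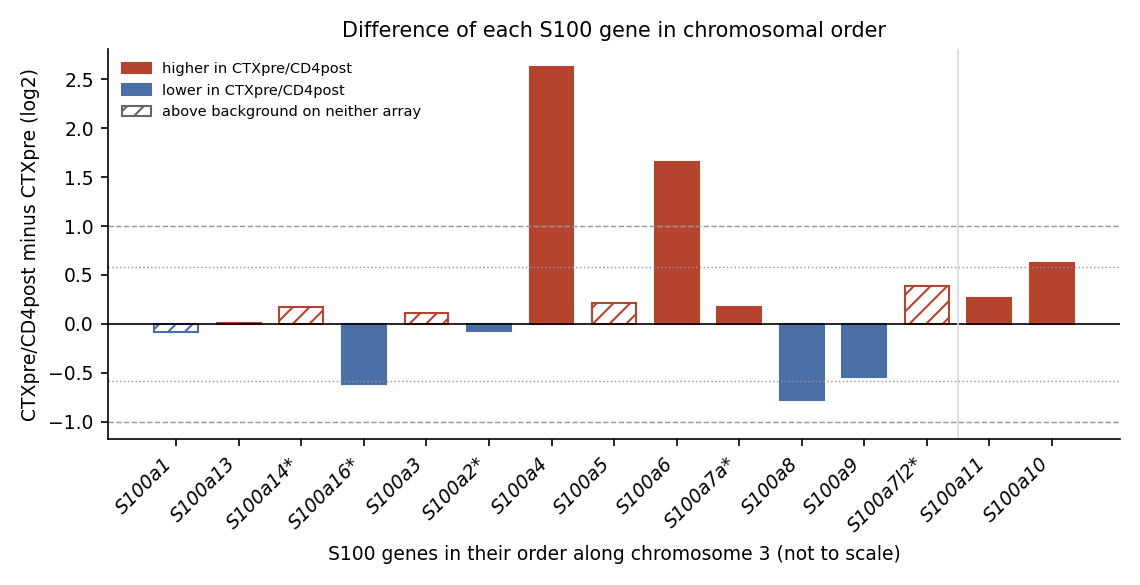
Difference (CTXpre/CD4post minus CTXpre, log2) of the 15 S100 genes of chromosome 3 in their order along it, not to scale, with genes outside the set of 10 marked by an asterisk, hatched bars for genes above background on neither array, dotted lines at 1.5-fold and dashed lines at 2-fold. The bars of S100a4 (2.63) and S100a6 (1.66) flank that of S100a5 (0.21, at background), and those of S100a8 (-0.77) and S100a9 (-0.54) point down.

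The array named 8 further S100 genes, 5 on chromosome 3 and 3 elsewhere. Of these, 2 were above background on both arrays, S100a2 (4.41 in CTXpre/CD4post and 4.48 in CTXpre) and S100g, an intestinal calcium carrier (4.97 in CTXpre/CD4post and 5.09 in CTXpre). S100a16, a widely expressed member, had a level of 4.19 in CTXpre/CD4post, not above background, and 4.80 in CTXpre, so it was at least 1.36-fold lower. S100a14, S100a7l2, S100b and S100z were above background on neither array. Only 4 of the 8 could therefore be called, since the rest lay under both bounds. Of these 4, 0 passed 1.5-fold upwards, beside 3.03% of all probe sets. Downwards, 1 of them, S100a16, passed it by measured levels, beside 3.35%. So few genes cannot be weighed against these shares. S100a2 was added to this list after its values were seen.

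S100 proteins act through partners, of which 11 of 12 listed genes were measured and all 11 were above background on at least 1 array. Anxa2, which forms a membrane complex with S100a10, had a level of 7.70 in the CTXpre/CD4post library and 6.82 in the CTXpre library, 1.83-fold higher, and was the only partner past 1.5-fold upwards. Anxa1, the partner of S100a11, had levels of 5.20 and 5.70 in CTXpre/CD4post and CTXpre, a difference of -0.50 that stands on the other side of 0 from S100a11 itself. Anxa6 and Anxa11, both bound by S100a6, had differences of 0.40 and 0.20.

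Of the partners outside the annexins, S100pbp alone passed 1.5-fold by measured levels. Myh9, the myosin heavy chain bound by S100a4, differed by -0.05, and Cacybp and Sugt1, which bind S100a6, by -0.04 and -0.19. Ppfibp1, a liprin bound by S100a4, was above background in CTXpre/CD4post only (4.65 there and 4.18 in CTXpre) and at least 1.24-fold higher. S100pbp, a nuclear protein that binds S100 proteins, had a level of 6.33 in CTXpre/CD4post and 7.11 in CTXpre, 1.72-fold lower. Fgf1 and Syt1, partners of S100a13 in protein export, differed by -0.09 and -0.05. The list had a median of -0.05, with 1 partner of 11 past 1.5-fold in each direction, beside 3.03% (higher) and 3.35% (lower) of all probe sets.

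Receptors for secreted S100 proteins all stayed within 1.5-fold. Ager, which encodes the receptor RAGE, had levels of 5.53 in CTXpre/CD4post and 5.22 in CTXpre. Tlr4, a receptor for calprotectin on myeloid cells, was above background on neither array (2.77 in CTXpre/CD4post and 3.05 in CTXpre). Bsg, Emb and Nptn, related immunoglobulin-type membrane proteins known to bind S100a8 or S100a9, had differences of 0.29, -0.32 and -0.18. The median over the 5 genes was -0.18, and 0.05 over the 4 above background.

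Of 9 genes that usually accompany S100a4 and S100a6 in memory T cells, 5 were at least 1.5-fold higher in the CTXpre/CD4post library, beside 3.03% of all probe sets. All 9 were above background on both arrays and had a difference above 0, with a list median of 0.67, beside 0.01 over all probe sets. Capg, which caps actin filaments, had a level of 7.86 in CTXpre/CD4post and 6.24 in CTXpre. Itgb1, an integrin chain, had 9.96 in CTXpre/CD4post and 8.52 in CTXpre, and the galectin Lgals1 had 10.38 in CTXpre/CD4post and 9.22 in CTXpre. Vim (0.81) and Lgals3 (0.67) also passed 1.5-fold, while Cd44 (0.40), Tagln2 (0.36), Emp3 (0.32) and Crip1 (0.27) did not. The list was drawn up with part of these values known, and the study selected Lgals1 on the same samples, so it lends the S100 genes no independent support.

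Of 13 listed neutrophil genes 12 were measured, all of them above background on at least 1 array, and 4 passed 1.5-fold downwards by measured levels, beside 3.35% of all probe sets. The other 8 did not pass 1.5-fold in either direction. The difference was below 0 for 11 of the 12, with a median of -0.49 and a range from -1.05 to 0.55. The granule genes Ngp and Lcn2 had levels of 8.15 and 8.73 in CTXpre/CD4post, against 9.09 and 9.65 in CTXpre. Retnlg, a hormone-like product of neutrophils, was 2.07-fold lower, with 5.68 in CTXpre/CD4post and 6.73 in CTXpre. Mmp8, a neutrophil collagenase, was not above background in CTXpre/CD4post (3.48) and barely so in CTXpre (4.39). Cxcr2, a chemokine receptor of neutrophils, was the gene with a difference above 0, with 5.13 in CTXpre/CD4post and 4.57 in CTXpre.

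Summed over the 12 neutrophil markers, the linear level was 1071 in CTXpre/CD4post and 1864 in CTXpre. Such a sum weights each gene by the brightness of its probes, and Ngp and Lcn2 carried most of it (linear levels of 284 and 423 in CTXpre/CD4post, against 546 and 801 in CTXpre). For monocyte and macrophage markers the median difference was -0.07, and 3 of 8 measured genes were at least 1.5-fold lower, beside 3.35% of all probe sets. Of these, Mpeg1, a pore-forming protein of phagocytes, had 7.50 in CTXpre/CD4post and 8.62 in CTXpre. Over the 8 genes, the difference was below 0 for 6 and above 0 for 2, Adgre1 (0.15) and Cd14 (0.01). Of 7 dendritic-cell markers, 5 were at least 1.5-fold lower, beside the same 3.35%, and the other 2, Xcr1 (-0.42) and Zbtb46 (-0.15), did not pass, with a list median of -0.75. The part of neutrophils or other myeloid cells in the levels of S100a8 and S100a9 was not tested.

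The CD8+ T-cell markers differed less than most of the effector and memory members. The 6 CD8+ T-cell markers were all above background and within 1.5-fold, with a median difference of 0.07 and a range from -0.01 to 0.38. The 4 S100 genes of the effector and memory group had a median of 1.14, although S100a11 (0.27) lay below Thy1 (0.38). These 4 genes were listed with their differences in view, so the comparison is a description only. Cd8a, the gene of the sorted antigen, had a level of 11.72 in CTXpre/CD4post and 11.47 in CTXpre. Cd4, the gene of the antigen that the antibody targets, had 5.98 in CTXpre/CD4post and 7.55 in CTXpre. The other CD4+ T-cell marker listed, Zbtb7b, a transcription factor of the CD4 lineage, stood on the other side of 0 within 1.5-fold, with 6.17 in CTXpre/CD4post and 5.81 in CTXpre. B-cell and plasma-cell markers had a median of -0.24, with Jchain, the joining chain of secreted antibodies, the lowest at -2.17. Jchain was the only 1 of the 5 measured that was at least 1.5-fold lower, beside 3.35% of all probe sets. Cd79a (-0.35), Pax5 (-0.24), Cd79b (-0.23) and Ms4a1 (-0.11) did not pass.

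**Figure D4:**
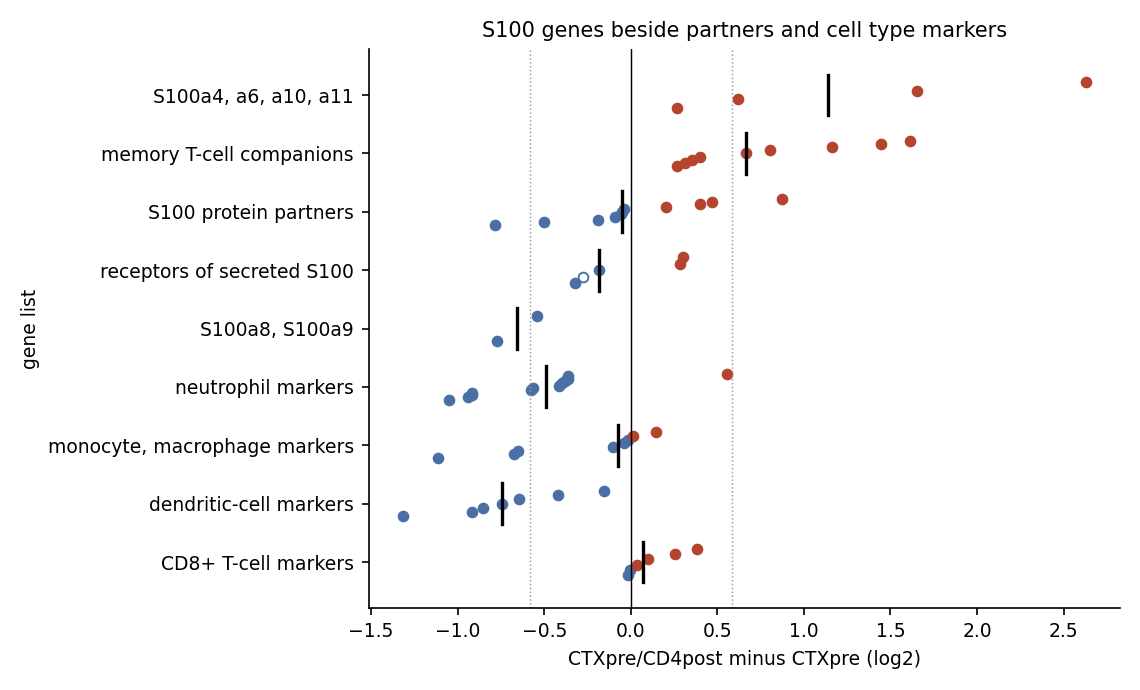
Difference (CTXpre/CD4post minus CTXpre, log2) of each gene, one point per gene, for S100 genes, their partners and cell type markers, with the median of each list as a black bar, open points for genes above background on neither array and dotted lines at 1.5-fold. The median is 1.14 for S100a4, S100a6, S100a10 and S100a11 and -0.66 for S100a8 and S100a9, beside -0.49 for neutrophil markers and 0.07 for CD8+ T-cell markers. The lists were chosen with earlier results of these data known, so the medians are a description only.

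For a description of likeness over both arrays, the 3 genes above background on both whose difference came nearest were taken for S100a4 and for S100a8. For S100a4 these were Actg2, a smooth muscle actin (7.22 in CTXpre/CD4post and 4.36 in CTXpre), Ifitm1, an interferon-induced membrane protein (8.22 in CTXpre/CD4post and 6.18 in CTXpre), and Crmp1, a cytoskeletal protein of neurons (6.79 in CTXpre/CD4post and 5.00 in CTXpre). Their gaps to S100a4 of 0.23, -0.58 and -0.84 show how few genes above background on both arrays came near its difference. Genes at background on 1 array were left out of this comparison. Among the 12862 genes above background on at least 1 array, S100a4 ranked 5th from the top. For S100a8 they were Dr1, a repressor of transcription, Treml4, a receptor of myeloid cells, and Sec23a, a vesicle coat protein, all within 0.002 of it. With 2 arrays such a match carries little information, since many genes share a difference of that size.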

How the data were processed

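The authors pooled sorted cells of 5 mice per group, extracted total RNA with Trizol, hybridised it to Clariom S mouse arrays and normalized both arrays in Affymetrix Power Tools by the robust multi-array average (RMA); the version is not given in the sources used. The deposited values are log2 levels, and 0 columns of per-sample values were left unused. RMA equalizes the distributions of both arrays, which hides any shift in total RNA, and medians were 5.15 on both.

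Of 22206 probe sets, 19572 carried 1 gene symbol of the platform annotation, for 19505 genes, of which 55 had several probe sets; the one with the highest mean over both arrays was kept. Entrez identifiers matched 19502 genes to RefSeq and changed 0 symbols. A single array per group allows no test, so genes were called by size. Counts are of genes above background on at least 1 array, and "at least N-fold" sets a dim level at the bound. The members and gene lists were chosen with earlier results of these data known. The named genes were all members, the measured genes of the lists around the family and the nearest genes of S100a4 and S100a8. From each marker list, up to 4 genes with the largest differences were named, plus those at background. Some marker genes that differed little or went the other way were also named. Alternatives were centred differences, quantile normalization, a lowess trend (fraction 0.3), 32 added to linear values, other thresholds and bounds, and the mean over probe sets. Python 3.11.15, pandas 2.3.3 and statsmodels 0.14.6 were used.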

Additional observations from a re-analysis of the deposited data

How the results depend on the processing

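With 1 array per group, the number of arrays limits every value, and no replicate could be left out. No paired analysis was possible because each group has a single array of RNA from pooled cells. As no replicate spread exists, a value was taken as moved where it changed by more than 0.27, the robust SD of the differences over all probe sets. Of 60 values of single members under 6 alternatives each, 58 moved by less than that. The other 2 were S100a4 (1.93) and S100a6 (1.36) with 32 added to the linear values. Many of the 60 could not move that far, so their count says little about robustness. Each member has 1 probe set, so the mean over probe sets repeats the main value, and centring shifts every gene alike by 0.01. Setting dim levels at the background bound leaves the 7 members above background on both arrays unchanged. The count of members at least 1.5-fold lower, 1 in the report, was 0 with 32 added to the linear values and 0 at a 2-fold threshold, since S100a8 ranged from -0.79 to -0.57. The count of members at least 1.5-fold higher, 3 in the report, was 2 after a further quantile normalization, since S100a10 ranged from 0.58 to 0.62, and 2 at a 2-fold threshold. The median of the effector and memory members ranged from 0.98 to 1.14 and that of the myeloid members from -0.67 to -0.51.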

Other observations

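Genes of the fused S100 type, large proteins of skin and hair that carry an S100 domain at one end, lie on the same chromosome between S100a9 and S100a11. Of 7 listed, 6 were measured and 1 was above background on both arrays, Rptn (repetin), with levels of 4.90 in CTXpre/CD4post and 4.77 in CTXpre. Flg2, Hrnr, Tchh, Tchhl1 and Crnn were above background on neither array. The median difference over the 6 genes was -0.02, so the stretch between S100a9 and S100a11 held no measured gene of this type that differed by 1.5-fold or more.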
